A study of Homo sapiens with 2 samples.

Results

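Of the 1600 miRNA precursors in the table, 5 that have been tied to blood flow in endothelium were followed in hCMEC/D3: hsa-mir-143, hsa-mir-145, hsa-mir-101-1, hsa-mir-101-2 and hsa-mir-663a. They were taken by name, with every row of either arm, which gave 8 of 2363 rows and 7 of 2042 mature names. hCMEC/D3 is an immortalised line of human cerebral microvascular endothelium, used to model the blood-brain barrier in culture. The 2 libraries, numbered replicate 2 and replicate 8, are of this line without any treatment, flow exposure or second group in the labels. They therefore give levels in the line and the difference between its libraries, and no response to flow was measured. The labels do not say that the replicates were separate cultures, so the spread between them may be technical.

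After 1 row was kept for each mature name, the libraries held 2721287 and 2727675 counts, and 543 mature miRNAs reached 10 counts in both. The endothelial marker miR-126-3p was at 112226 ± 4003 CPM (counts scaled to a library sum of 1000000, SD, n = 2). Reads carried no molecular identifiers in the labels, so every interval, limit and test on counts here covers counting error only. Ligation and gel selection capture miRNAs unequally, which affects any ranking of different miRNAs by level more than it affects 1 miRNA across the libraries.

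Shear stress, the drag of flowing blood, changes endothelial gene expression in part through miRNAs. The miR-143 and miR-145 hairpins are cut from a common transcript. They are best known from vascular smooth muscle, where they favour the contractile state, and in endothelium they are induced under laminar flow by the transcription factor KLF2 and can pass to smooth muscle in vesicles. The miR-101 hairpins give the same 3p product, a repressor of the histone methyltransferase EZH2 that has been reported to rise with laminar shear. miR-663a, in contrast, has been linked to disturbed, oscillatory flow and inflammatory gene expression in endothelium.

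A miRNA finds its targets mainly through its seed (bases 2 to 8, in capitals), and the 7 mature sequences are shown 5′ to 3′ because these seeds separate them: 7 different seeds were found. All 7 names matched the RefSeq table (GRCh38.p14), from which every sequence here is taken.
miR-143-3p: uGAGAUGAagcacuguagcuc
miR-143-5p: gGUGCAGUgcugcaucucuggu
miR-145-5p: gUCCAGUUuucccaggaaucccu
miR-145-3p: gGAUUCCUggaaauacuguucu
miR-101-3p: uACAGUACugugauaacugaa
miR-101-5p: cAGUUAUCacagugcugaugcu
miR-663a: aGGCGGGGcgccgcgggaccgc

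In base composition miR-663a and miR-101-3p lay near opposite ends of the RefSeq collection, with the other members between them. Of its 2370 mature sequences, with a median GC content of 52.2%, 99.5% had a lower GC content than miR-663a, at 90.9%. Only 6.58% had a lower one than miR-101-3p, at 33.3%. The leading arms of the cluster lay near the middle, with 47.6% for miR-143-3p and 52.2% for miR-145-5p.

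The hairpins of the cluster lay 1622 bases apart on the plus strand of chromosome 5. MIR143, at chr5:148808481-148808586 (GRCh37), overlapped an exon in all 3 transcripts of the lncRNA CARMN that span it. MIR145, at chr5:148810209-148810296, lay in an intron of all 3. The positions come from exact matches of the sequences to GRCh37, the assembly that hg19 in the submitters' notes corresponds to. The RefSeq hairpins are shown because arm use is described from them, with the 2 mature arms in capitals.
MIR143: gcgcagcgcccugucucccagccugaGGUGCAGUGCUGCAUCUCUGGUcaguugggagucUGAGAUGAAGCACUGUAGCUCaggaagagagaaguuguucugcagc
MIR145: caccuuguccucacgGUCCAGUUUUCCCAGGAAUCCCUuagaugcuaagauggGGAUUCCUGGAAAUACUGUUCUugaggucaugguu

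Of the 7 mature miRNAs, 4 were detected, reaching 10 counts in each library: miR-143-3p, miR-145-5p, miR-145-3p and miR-101-3p. miR-663a and miR-143-5p had some counts in each library, and miR-101-5p had none. The summed level of the 7 was 1167 CPM in replicate 2 and 646 CPM in replicate 8, a mean of 907 ± 368 CPM (SD, n = 2). None came near the main endothelial miRNA: miR-126-3p was 149 times the level of miR-143-3p, the most abundant member, in replicate 2 and 360 times in replicate 8.

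**Figure D1:**
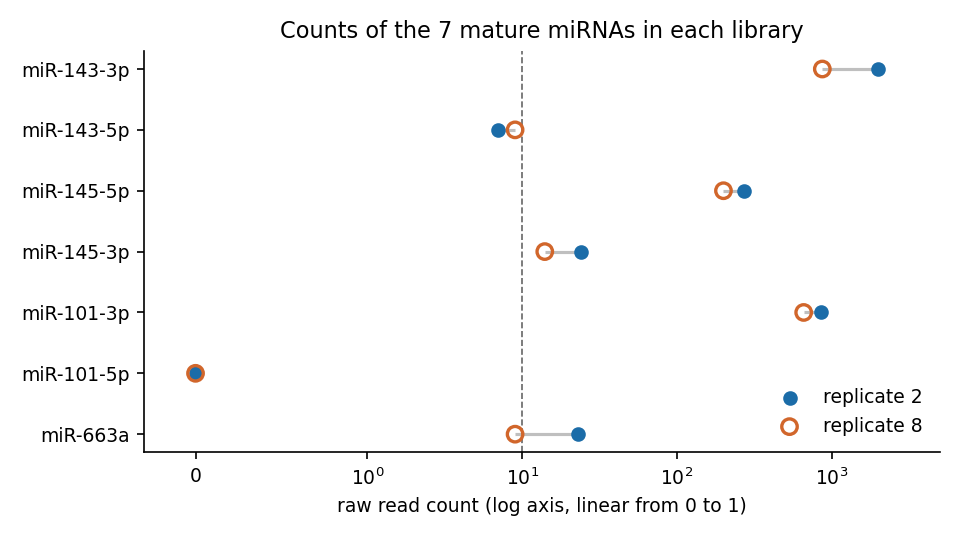
Raw read count (x axis, logarithmic above 1) of each of the 7 mature miRNAs in replicate 2 (filled) and replicate 8 (open), with the detection limit of 10 counts dashed. The largest gap among the detected members is that of miR-143-3p, with 2000 and 871 counts, and miR-143-5p is the only member with more counts in replicate 8.

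miR-143-3p, the mature product known for promoting smooth muscle differentiation, was counted 2000 times in replicate 2 and 871 times in replicate 8. This is 735 CPM (95% Wilson interval 703 to 768) and 319 CPM (299 to 341), a mean of 527 ± 294 CPM (SD, n = 2). It ranked 98th among all mature miRNAs in replicate 2 and 140th in replicate 8. The libraries therefore differed 2.30-fold in this miRNA, and its SD exceeded 50% of its mean.

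miR-145-5p, which has the stem cell and smooth muscle regulator KLF4 among its known targets, was counted 271 times in replicate 2 and 200 times in replicate 8. Its levels were 99.6 CPM (95% Wilson interval 88.4 to 112) and 73.3 CPM (63.8 to 84.2), a mean of 86.5 ± 18.6 CPM (SD, n = 2). It was lower in replicate 8, like its neighbour, but by 1.36-fold. miR-101-3p had 850 and 660 counts, or 312 CPM (292 to 334) and 242 CPM (224 to 261), a mean of 277 ± 49.8 CPM. It too was lower in replicate 8, by 1.29-fold.

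The other 4 mature miRNAs were near or below the detection limit. miR-145-3p, the minor arm of its hairpin, had 24 and 14 counts (replicate 2 first). miR-663a had 23 and 9, and miR-143-5p had 7 and 9. miR-101-5p had 0 counts in both libraries, where 3 counts, or 1.10 CPM in either library, are the limit that a count of 0 allows.

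In order of mean level the members were miR-143-3p, miR-101-3p, miR-145-5p, miR-145-3p (6.98 ± 2.61 CPM), miR-663a (5.88 ± 3.64 CPM), miR-143-5p (2.94 ± 0.51 CPM) and miR-101-5p. The means of miR-143-3p and miR-101-3p differed by less than the SD of miR-143-3p, although the lower value of the first (319 CPM) was above the higher value of the second (312 CPM). The range of miR-145-3p overlapped with that of miR-663a, although miR-145-3p was the higher in each library. miR-663a, at 9 counts in replicate 8, was level there with miR-143-5p. The range of miR-145-3p lay above that of miR-143-5p. The steps from miR-101-3p to miR-145-5p and from there to miR-145-3p were larger than the ranges of the libraries.

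**Figure D2:**
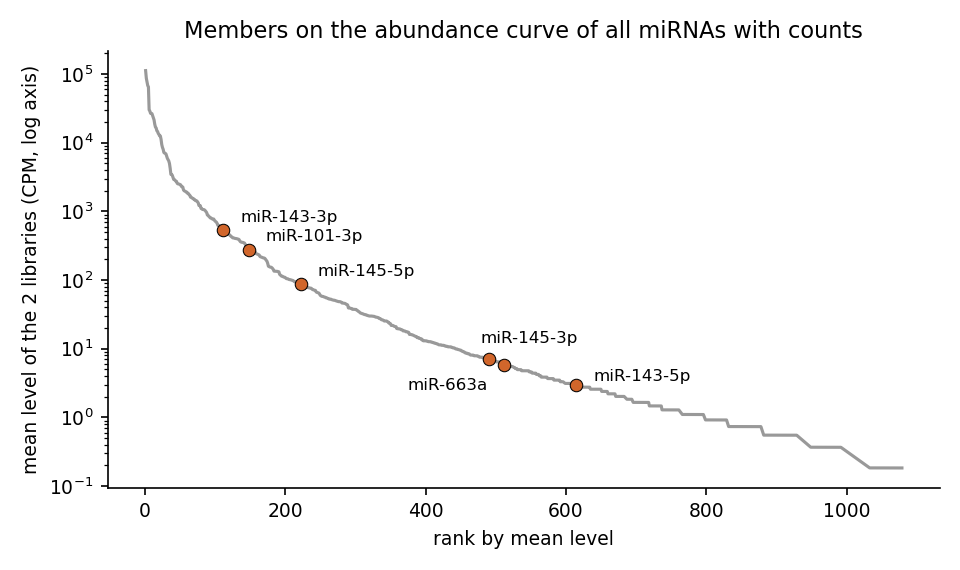
Mean level of the 2 libraries in CPM (logarithmic y axis) against rank for all mature miRNAs with counts (line), with the 6 members that had counts as points. miR-143-3p, miR-101-3p and miR-145-5p lie at ranks 112, 148 and 222, and the other 3 at ranks 490 to 615.

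Between the libraries, 4 of the 6 members with at least 10 summed counts passed the exact binomial test, adjusted over all 695 such miRNAs, and all 4 were lower in replicate 8: miR-143-3p, miR-145-5p, miR-101-3p and miR-663a. Over all 695, 34.2% differed, 23.5% being lower and 10.8% higher in replicate 8. The median log2 ratio of the 6 members (replicate 8 over replicate 2) was -0.60, beside -0.11 over all 695, and 5 of the 6 were below 0, beside 425 of the 695. Deeper miRNAs are called more often: with at least 100 summed counts 37.1% of 367 were lower in replicate 8, and so were all 3 members that remained. The test compares 2 libraries and not conditions.

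The log2 ratio of miR-143-3p was -1.20 (95% interval -1.32 to -1.09, exact binomial adjusted p = 3.8e-100). Among the 367 miRNAs that reached 100 summed counts, 7 had a lower ratio and 359 a higher one. For miR-145-5p the log2 ratio was -0.44 (-0.71 to -0.17, exact binomial adjusted p = 0.0043), with 62 of the 367 lower. For miR-101-3p it was -0.37 (-0.52 to -0.22, exact binomial adjusted p = 6.1e-06), with 82 of the 367 lower. The last 2 therefore lay within the usual range of these libraries, and miR-143-3p near its lower end.

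miR-663a had a log2 ratio of -1.31, with a wide interval of -2.65 to -0.19 from 32 summed counts (exact binomial adjusted p = 0.040). With TMM library sizes its adjusted p by the same exact test was 0.092 and with DESeq2 size factors 0.090, so its call ended with the scaling. miR-145-3p, at -0.76 (-1.85 to 0.23), and miR-143-5p, at 0.34 (-1.23 to 2.02), did not pass at this depth. The scaling also changed the split over all miRNAs, from 75 higher and 163 lower with total counts to 111 and 116 with TMM sizes and 115 and 107 with DESeq2 size factors. Both scalings leave miR-143-3p, miR-145-5p and miR-101-3p lower in replicate 8 and past the threshold. For miR-145-5p this was close, with an adjusted p by the exact binomial test of 0.036 (TMM) and 0.046 (DESeq2). Both scalings shift every log2 ratio up, TMM by 0.10 and DESeq2 by 0.11.

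These calls hold counting error alone. When the spread between the libraries was estimated over all miRNAs, as edgeR's common dispersion, none of the members passed edgeR's exact test. The dispersion was a biological coefficient of variation of 22.9%. It came from the same 2 libraries taken as 1 group, so it already holds the differences under test. The test cannot tell an absent difference from one absorbed in this spread. For miR-143-3p edgeR's exact test gave an unadjusted p of 0.013 and an adjusted p of 0.51, and it was the 1 member with an unadjusted p under 0.05. For miR-145-5p, miR-101-3p and miR-663a the adjusted p of edgeR's exact test was 1. With this spread 10 of all 695 miRNAs passed (1.44%), and 32 had an unadjusted p under 0.05.

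**Figure D3:**
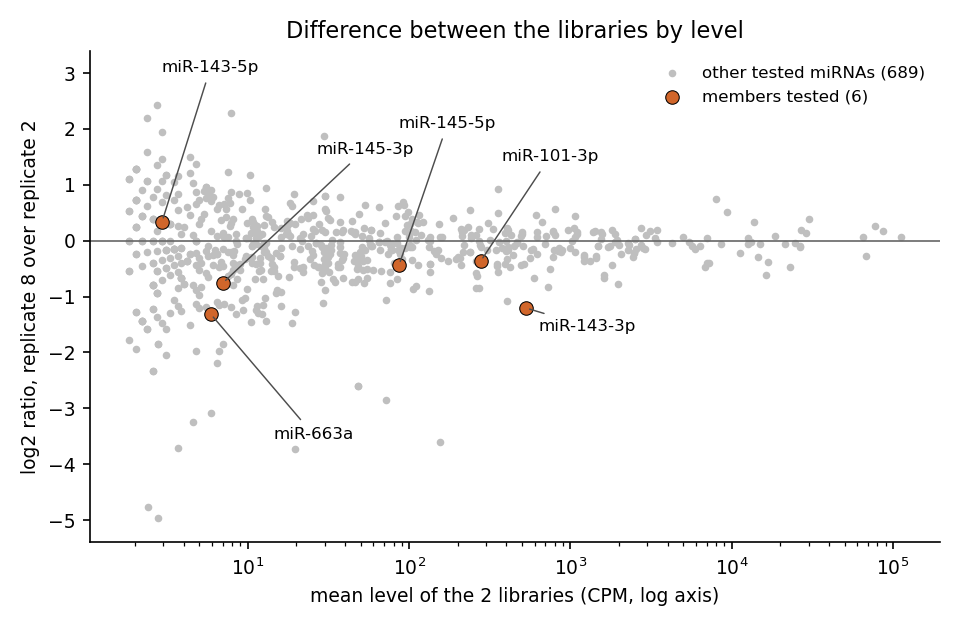
Log2 ratio of replicate 8 over replicate 2 (y axis) against mean level in CPM (logarithmic x axis) for the 695 tested miRNAs, of which 6 are members and marked. At its level miR-143-3p, at -1.20, lies below nearly all other points, while miR-145-5p and miR-101-3p lie within the cloud.

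Within the cluster, miR-143-3p outnumbered miR-145-5p in both libraries, 7.38-fold in replicate 2 and 4.36-fold in replicate 8. Its share of the counts of these 2 arms, which does not depend on library scaling, fell from 88.1% (95% Wilson interval 86.7 to 89.3) in replicate 2 to 81.3% (78.9 to 83.5) in replicate 8, a mean of 84.7% ± 4.77 (SD, n = 2). The intervals did not overlap. With both arms of each hairpin summed, the shares were 87.2% and 80.4%. The same question was put to all 52 pairs of neighbouring hairpins within 10000 bases (RefSeq, GRCh38.p14) whose leading miRNAs had 1 precursor each and at least 10 counts. By Fisher's exact test adjusted over these pairs, 28.8% changed their ratio between the libraries, and the ratio of miR-143-3p to miR-145-5p was among them (adjusted p = 2.2e-06). The log2 of this ratio fell by 0.76 from replicate 2 to replicate 8, beside a median absolute change of 0.32 over the 52 pairs. Of the other pairs 46 changed by less and 5 by more.

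The arms of the cluster hairpins were used very unevenly, and on opposite sides. In hsa-mir-143 the 3p arm held 99.7% of the counts in replicate 2 and 99.0% in replicate 8. In hsa-mir-145 the 5p arm led, holding 91.9% (95% Wilson interval 88.2 to 94.5) of replicate 2 and 93.5% (89.3 to 96.1) of replicate 8. The row of hsa-mir-101-1 gives no arm share of its own, since its 3p reads can also come from hsa-mir-101-2. Of the 202 hairpins whose arms together reached 50 counts in each library, 141 had more than 90% on 1 arm in both libraries, and both cluster hairpins were among them.

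Neither cluster hairpin passed Fisher's exact test for a change of arm use between the libraries, adjusted over the 202 hairpins, of which 19.8% did. hsa-mir-101-1 had no 5p counts in either library, and hsa-mir-101-2 and hsa-mir-663a had 1 row each and were not tested. The 5p share of hsa-mir-143 was 0.35% (95% Wilson interval 0.17 to 0.72) and 1.02% (0.54 to 1.93), from 7 and 9 counts (Fisher's exact test, p = 0.031, adjusted p = 0.13). miR-143-5p had a log2 ratio of 0.34 (interval -1.23 to 2.02) and miR-143-3p one of -1.20, in opposite directions. At this depth a difference between the arms in their change was neither shown nor excluded, as Fisher's exact test passed only before adjustment. For hsa-mir-145 the adjusted p of Fisher's exact test was 0.92.

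**Figure D4:**
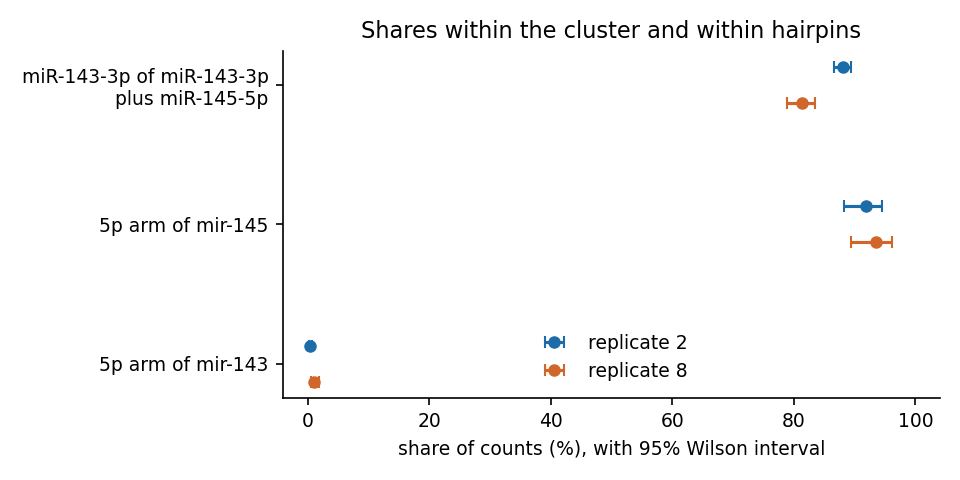
Share of counts in percent (x axis, points with 95% Wilson intervals) in replicate 2 and replicate 8, for miR-143-3p within its sum with miR-145-5p and for the 5p arm within the 2 cluster hairpins. The cluster share falls from 88.1% to 81.3% with intervals apart, while the arm shares stay near 0% or above 90%.

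The miR-101 loci lie on different chromosomes. MIR101-1, at chr1:65524117-65524191 (GRCh37, minus strand), is in an intron of all 8 JAK1 transcripts that span it. MIR101-2, at chr9:4850297-4850375 (plus strand), is in an intron of all 5 RCL1 transcripts there. The RefSeq hairpins are shown with their mature arms in capitals because the 3p arm is the same in both and the 5p arms are not.
MIR101-1: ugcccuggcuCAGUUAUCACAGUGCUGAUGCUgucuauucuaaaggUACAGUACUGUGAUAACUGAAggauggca
MIR101-2: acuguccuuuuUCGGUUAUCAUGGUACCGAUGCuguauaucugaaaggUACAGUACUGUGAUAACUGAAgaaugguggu

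The hairpins agree over a stretch of 27 bases, made of the 21 bases of miR-101-3p with 5 before and 1 after it. A read inside this stretch cannot be given to either locus. The table listed 835 and 648 counts of miR-101-3p under hsa-mir-101-1 and 850 and 660 under hsa-mir-101-2, so the second row was larger by 15 counts in replicate 2 and 12 in replicate 8, or 1.80% and 1.85%. The rows thus held nearly the same counts, and the relative output of the loci could not be read from them. Summing the rows gives 471 CPM in place of 277 CPM, but would count again every read listed in both. The 5p arms could separate the loci, but miR-101-5p, of hsa-mir-101-1, had no counts. The 5p arm of hsa-mir-101-2 is not listed in the counts used here.

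miR-663a matched GRCh37 exactly at 3 places, while the leading arms of the cluster each matched 1. The match within the lncRNA MIR663AHG was at chr20:26188879-26188900 (minus strand). The other 2 were on the unplaced contig GL000220.1, at 107473 to 107494 and 151445 to 151466 (plus strand). The annotation used lists no transcript over them, which does not show that these places are untranscribed. Reads from these places would have the same sequence, and their part in the 23 and 9 counts of miR-663a was not tested.

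Of the RefSeq miRNAs that were searched, 5 shared a seed with a detected member or with miR-663a. For miR-143-3p they were miR-4770 and miR-6088, both with 0 counts in both libraries. miR-4770 is shown because its 18 bases also share a run of 10 with miR-143-3p after the seed.
miR-4770: uGAGAUGAcacuguagcu
miR-1908-5p: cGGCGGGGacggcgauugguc
The second, miR-1908-5p, has the seed of miR-663a and was the more abundant, with 435 and 295 counts. The others found with this seed were miR-6787-5p and miR-10396b-5p, which are not listed in the counts used here. For miR-145-5p, miR-145-3p and miR-101-3p the search found no further miRNA with the same seed. It did not cover every entry of the RefSeq table, so it cannot show that any of these seeds is unique.

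The miRNAs closest to each detected member were found by the distance of log2(CPM + 1) over the 2 libraries, which describes only their level. For miR-143-3p they were miR-1290 (1492 and 707 counts), miR-339-5p and miR-874, at distances of 0.52 to 0.54. For miR-101-3p they were miR-3187-3p, miR-16-2-3p and miR-4326, at 0.14 to 0.21. miR-145-5p lay closest to miR-1275 (266 and 200 counts), miR-15a-5p and miR-937-3p, at 0.03 to 0.12. The neighbours of miR-145-3p were miR-4804-5p, miR-4440 and miR-1273f, at 0.10 to 0.19. The nearest miRNA to miR-143-3p lay farther away than any of the 3 neighbours of each other detected member.

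Of 16 other miRNAs tied to shear stress in endothelium and listed for comparison, 15 were detected, with miR-126-3p the highest and miR-19a-3p the lowest detected at 8.45 ± 5.20 CPM (SD, n = 2). By the exact binomial test 7 were higher and 6 lower in replicate 8, with a median log2 ratio of -0.02 over the list. Beside this, 75 of all 695 were higher and 163 lower, and 57.8% of the 367 with at least 100 summed counts were called. With TMM or DESeq2 sizes 10 of the list were higher and 4 lower, and the median was 0.08 or 0.09. Over all 695, TMM sizes gave 111 higher and 116 lower, and DESeq2 sizes 115 and 107. miR-10a-5p, which restrains inflammatory signalling in endothelium, was among the lower ones with 470 and 253 counts, and miR-21-5p among the higher ones with 191308 and 230231 counts. The members' median of -0.60 over 6 miRNAs is given beside this without a test of the difference.

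miR-143 and miR-145 also mark mural cells, the smooth muscle cells and pericytes of vessel walls, so the other markers were read beside them. Of the 3 mural markers that are not members, miR-133a had 21 and 16 counts, miR-1 had 12 and 8, and miR-133b had 2 and 2, a summed level of 12.9 CPM in replicate 2 and 9.53 CPM in replicate 8. Neither of the 2 with enough counts to test passed the exact binomial test. In bulk RNA, fewer cells of a type and less RNA per cell cannot be told apart.

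Markers of some other cell types were lower in replicate 8 together with miR-143-3p, where 23.5% of all 695 tested miRNAs were lower and 37.1% of those with at least 100 summed counts. Of the 6 fibroblast and mesenchymal markers, 4 were lower in replicate 8 by the exact binomial test and none was higher, with a median log2 ratio of -2.92. Their sum went from 3904 to 3471 CPM, and from 420 to 44.0 CPM without miR-140-3p, which is widely expressed and was set apart after its values were seen. Of the 420 and 44.0 CPM, miR-10b-5p alone held 286 and 23.5 CPM. With TMM or DESeq2 sizes miR-140-3p itself was higher and the same number was lower. The lowest ratios were those of miR-199a-5p, with 99 and 7 counts, and miR-10b-5p, with 777 and 64. With total counts, miR-140-3p (9479 and 9349 counts) and miR-199b-5p (18 and 10 counts) did not pass the exact binomial test. None of the 6 was at 0.

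Of the 7 epithelial markers, 6 could be tested, of which 4 were lower in replicate 8 and none higher, with sums of 103 and 53.9 CPM. These 4 had few counts: miR-200b-3p 76 and 27, miR-200a-3p 29 and 3, miR-205-5p 15 and 0, and miR-429 13 and 0. miR-205-5p is also among the 16 miRNAs tied to shear stress. miR-200c-3p (118 and 85 counts) and miR-203a (30 and 32) did not pass, and miR-141-3p had 0 counts in both libraries. Of the 7 blood markers, 3 could be tested, and all 3 were lower (2 with DESeq2 sizes), with sums of 553 and 400 CPM, and miR-142-3p, miR-144-3p and miR-223-3p had 0 counts in both. The 2 neural markers summed to 44.1 and 34.1 CPM, and the 1 with enough counts did not pass. The 3 endothelial markers summed to 111569 and 117359 CPM, of which miR-126-3p held 109395 and 115057 CPM. In replicate 8, 2 were higher, at log2 ratios of 0.07 (miR-126-3p) and 0.15 (miR-139-5p), where 10.8% of all 695 were higher. None was lower, and miR-126-5p, at -0.06, did not pass. The part of other cells, or of RNA from outside the culture, in the lower miR-143-3p of replicate 8 was not tested.

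**Figure D5:**
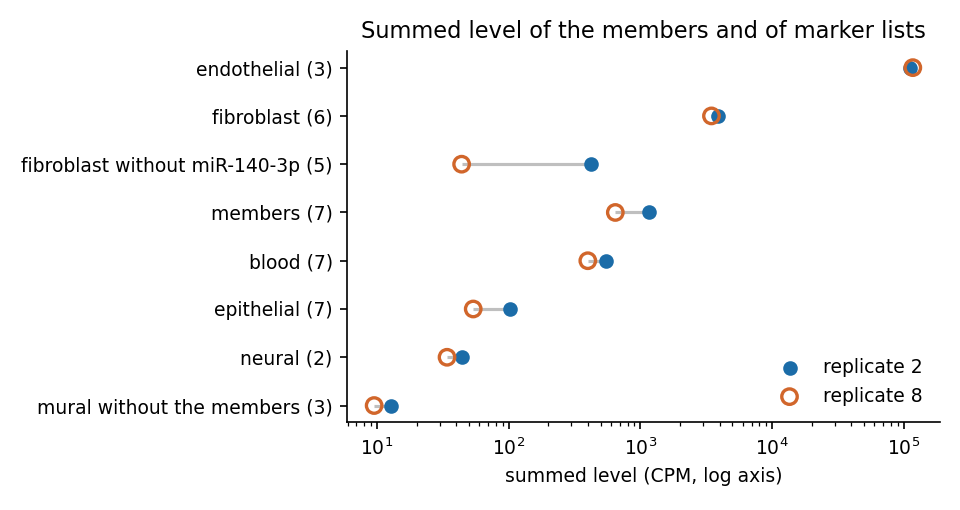
Summed level in CPM (logarithmic x axis) of the 7 members and of marker lists in replicate 2 (filled) and replicate 8 (open), with the number of miRNAs in brackets. The endothelial sum, nearly all of it miR-126-3p, differs little, whereas the members go from 1167 to 646 CPM. The full fibroblast list goes from 3904 to 3471 CPM. Without miR-140-3p, set apart after its values were seen, it goes from 420 to 44.0 CPM, of which miR-10b-5p held 286 and 23.5 CPM.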

How the data were processed

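Small RNA of hCMEC/D3 cells was sequenced in 2 libraries. The authors deposited raw read counts and RPM (reads scaled to a common library sum) for each mature miRNA and precursor. The submitters' processing notes name CASAVA 1.9, FastQC, cutadapt, Bowtie 0.12.7 and hg19, without roles. The counter and the miRBase release are not given in the sources used here.

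A mature name listed under several precursors was represented by its row with the highest mean count. CPM (counts scaled to a library sum of 1000000) were computed on the remaining totals. Detection required 10 counts in each library. The libraries were compared by two-sided exact binomial tests over all miRNAs with at least 10 summed counts, and arm shares by two-sided Fisher's exact tests, each adjusted by Benjamini-Hochberg and called under 0.05 (scipy 1.17.1). With 1 group, edgeR's quasi-likelihood test could not be fitted. As an alternative, edgeR 4.0.16's exact test was run at the common dispersion of all miRNAs. The dispersion was estimated from the same 2 libraries as 1 group with TMM sizes, and the test used total counts. Scaling alternatives were TMM and the size factors of DESeq2 1.42.0. The test scripts were tested on simulated data. Log2 ratios use 0.5 added counts.

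All rows of the precursors are named, with the 3 miRNAs nearest to each detected member in log2(CPM + 1), the highest and lowest of the listed markers, and miRNAs with a shared seed. Further listed miRNAs, and the test of neighbouring hairpins, were chosen after their values were seen. The members and lists were chosen with earlier results of these data known.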

Additional observations from a re-analysis of the deposited data

How the results depend on the processing

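The 4 members that differed between the libraries became 3 with TMM sizes, with DESeq2 size factors, with no filter on low counts and with at least 100 summed counts, and stayed 4 with repeated rows summed. They became 0 with edgeR's exact test at the common dispersion, which adds the spread over all miRNAs and leaves 10 of 238 calls in all. That spread was estimated from the same libraries that were compared. No ratio changed direction under another scaling, 5 added counts or summed rows, and miR-663a alone lost its call, with log2 ratios of -1.21 (TMM) and -1.20 (DESeq2). Members detected were 6 at 1 count and 3 at 100 counts. Leaving out 1 library gave a range of 81.3% to 88.1% for the miR-143-3p share, 646 to 1167 CPM for the members' sum, 0.35% to 1.02% for the 5p share of hsa-mir-143, 91.9% to 93.5% for that of hsa-mir-145 and 0% for the row of hsa-mir-101-1, whose 3p reads are shared. Without replicate 2 the level of miR-143-3p was 319 CPM in place of 527 CPM and that of miR-663a 3.30 CPM in place of 5.88 CPM. With 2 libraries such a value lies within 1 SD of the mean by construction. No paired analysis was possible because there is 1 group. Depth limits miR-663a, miR-145-3p and miR-143-5p, each with under 50 summed counts.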

Other observations

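miR-663b, which shares the name but not the seed of miR-663a and was chosen after its values were seen, was higher in replicate 8, with 35 counts against 21 (log2 ratio 0.72), and did not pass the exact binomial test.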
